A study of Homo sapiens with 2 samples.

Results

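The genes described here are 10 genes best known for their expression in pluripotent stem cells, POU5F1, NANOG, SOX2, LIN28A, LIN28B, DPPA4, TDGF1, ZFP42, DNMT3B and L1TD1, of the 55797 genes with a value in each library. They were taken by symbol, and each was found once. H1, an established line of human embryonic stem cells, was carried to Stage 6, the final stage of a pancreatic differentiation protocol, where insulin-expressing cells are present. The culture was split in 2. RNA of the live sample was isolated at once with the RNeasy kit, whereas the processed sample was fixed in 4% paraformaldehyde, permeabilized, stained with antibodies and run through the sorter with every cell kept, and its RNA was released with a modified RecoverAll kit. Both samples are mixed cultures of 1 line, with 1 library per condition. A sample of undifferentiated H1 cells was not analysed here, so whether these levels are a residue of the starting cells cannot be read from the values.

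POU5F1 (OCT4), SOX2 and NANOG are the transcription factors at the centre of the pluripotency network, in which POU5F1 and SOX2 bind neighbouring DNA elements as a pair and activate NANOG along with their own genes. Around them stand RNA-binding proteins that keep the let-7 microRNAs low (LIN28A and LIN28B), a coreceptor for Nodal (TDGF1, or Cripto), a de novo DNA methyltransferase (DNMT3B) and nuclear or RNA-bound proteins that mark undifferentiated cells (DPPA4, ZFP42 and L1TD1). Several of these genes are not exclusive to pluripotent cells. SOX2 is also made in neural and foregut progenitors, and the LIN28 genes in many fetal tissues.

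Levels are given as FPKM, a count of fragments scaled by transcript length and library size, with the lower and upper bound that the authors' software set for each library. Ratios are log2((processed FPKM + 1) / (live FPKM + 1)), a scale on which low genes move less than their FPKM. With 1 library each, no difference below has a replicate check or a p-value. The bounds describe error within a library. FPKM summed over all genes to 510713 in live and 499398 in processed cells. The worth of 1 fragment, read from the steps of low FPKM in genes with a single annotated transcript, was 0.01002 FPKM kb (live) and 0.0107 FPKM kb (processed). For SOX2, with 1 annotated transcript of 2512 nt, these steps give about 12251 fragments in live and 10271 in processed cells, and for L1TD1, with 1 of 3831 nt, about 2077 and 1152. Stage 6 identity was visible in both libraries, with 8 endocrine markers examined at FPKM values above 6. The highest were CHGA, a granule protein, at 1794 and 1741 FPKM (live and processed), SST at 243 and 266 FPKM and GCG at 135 and 131 FPKM, of which CHGA has status FAIL and bounds from 0 to 4712 FPKM in the processed library.

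All 10 genes reached an FPKM of 1 in both libraries. They ranged over 93.8-fold in live cells, from 1.27 FPKM for NANOG to 119 FPKM for LIN28A, and over 60.7-fold in processed cells, from 1.46 FPKM for TDGF1 to 88.7 FPKM for LIN28A. Processed cells had the lower value for 8 genes and the higher value for POU5F1 and NANOG. The median log2 ratio of the 10 genes was -0.39, beside -0.09 over the 17326 expressed genes, those that reached 1 FPKM in one or both libraries, of which 58.3% were lower after processing. More than 2-fold apart were 3 of the 10, TDGF1 and ZFP42 lower and NANOG higher, against a background of 12.8% of those 17326 genes (6.19% lower and 6.57% higher). The bounds were apart for 9 of the 10, all but POU5F1, against 71.8% of the background genes. The 3 genes past 2-fold are among 5 listed genes with mean FPKM values between 3 and 10, a range in which 11.5% of 4925 genes lay past 2-fold. Between 10 and 100 FPKM the share was 3.49% of 7156 genes, and the 4 listed genes there, SOX2, DPPA4, LIN28B and DNMT3B, were within 2-fold.

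**Figure D1:**
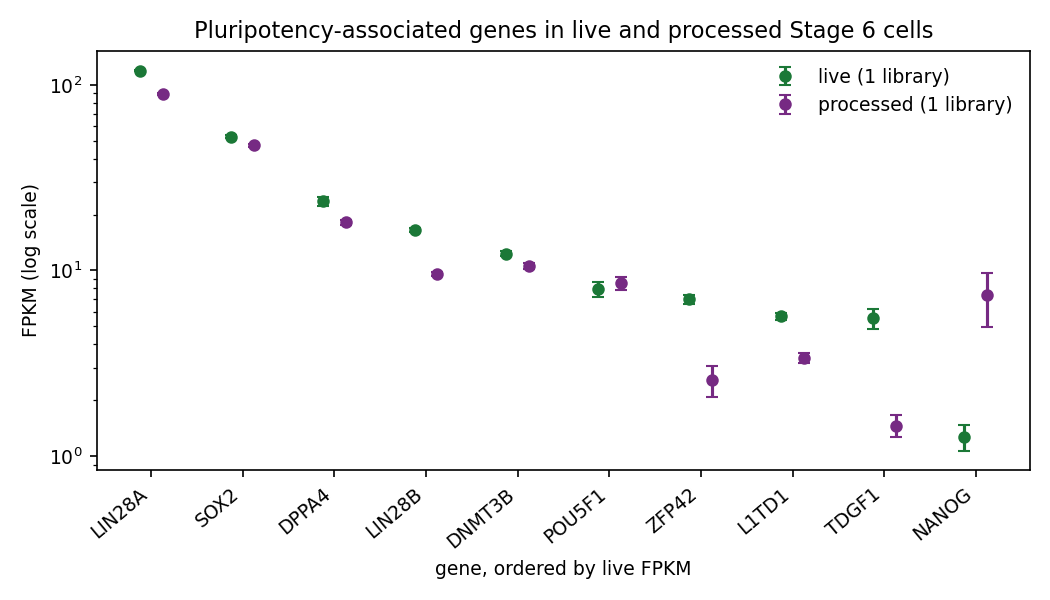
FPKM on a log axis for each of the 10 genes in the live (green) and processed (purple) library, with the FPKM bounds of each library as error bars. LIN28A is the highest gene in both libraries, and NANOG is the lowest in live cells at 1.27 FPKM but lies at 7.34 FPKM in processed cells.

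The order of the genes was kept at the top and changed at the bottom. In both libraries LIN28A was followed by SOX2 and then DPPA4, with bounds apart at each step. LIN28B stood above DNMT3B in live cells (16.6 and 12.3 FPKM) and below it in processed cells (9.58 and 10.6 FPKM). Of neighbours in the live order, the bounds overlapped for POU5F1 and ZFP42 and for L1TD1 and TDGF1. In processed cells they overlapped for POU5F1 and NANOG.

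**Figure D2:**
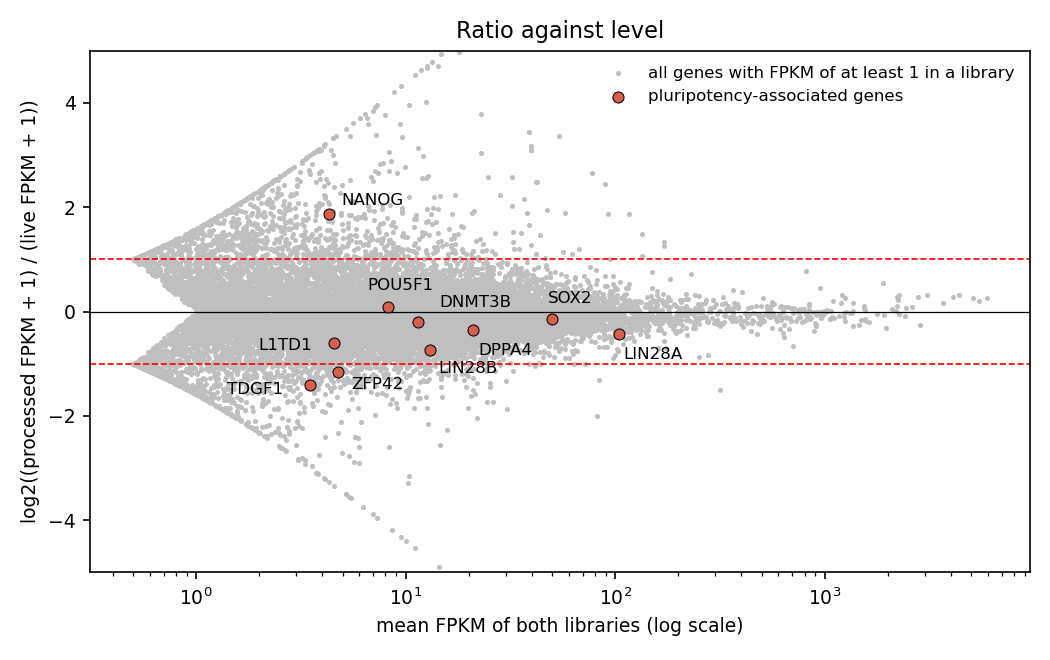
Log2 ratio of processed to live FPKM (pseudocount 1) against mean FPKM on a log axis, for the 17326 expressed genes (grey) and the 10 pluripotency-associated genes (red). Dashed lines mark 2-fold, 13 grey genes lie beyond the axis limits of 5, and NANOG, TDGF1 and ZFP42 are the listed genes outside the lines.

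Among the core factors, SOX2 was the most abundant. SOX2 (chromosome 3, 181429714 to 181432221 on GRCh37, a gene of a single exon) had 52.4 FPKM in live cells (51.5 to 53.4) and 47.1 FPKM in processed cells (46.2 to 48.0), a log2 ratio of -0.15. Its bounds were apart by a small distance, and 61.5% of 1619 genes at a similar mean FPKM had a ratio at least as large in size. SOX2 lies within SOX2-OT (chromosome 3, 180721562 to 181508734), a long non-coding RNA, which was 1.15 FPKM in live cells (0.920 to 1.37) and 0.00227 FPKM in processed cells. How fragments within the overlap were divided between SOX2 and SOX2-OT was not tested.

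POU5F1 (chromosome 6, 31130253 to 31148508) was the gene of the 10 closest to an equal value, with 7.92 FPKM in live cells (7.17 to 8.67) and 8.53 FPKM in processed cells (7.82 to 9.24). Its log2 ratio was 0.10 and the bounds overlapped. The POU5F1 locus overlaps TCF19, transcribed from the opposite strand, which went from 3.87 FPKM (live) to 2.25 FPKM (processed). Whether strand was used in counting is not stated in the sources used here, and fragments from the shared stretch could not then be told apart. PSORS1C3, which also overlaps POU5F1, was listed at 0 in both libraries.

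NANOG (chromosome 12, 7940390 to 7948655) differed the most of the 10. It had 1.27 FPKM in live cells (1.06 to 1.48) and 7.34 FPKM in processed cells (4.95 to 9.74), a log2 ratio of 1.88 and 5.78 times the live FPKM. It moved from rank 15303 of all genes by FPKM in live cells to rank 9054 in processed cells. Of 3046 genes at a similar mean FPKM, 3.91% had a ratio at least as large in size. The processed value was also the least precise of the 20 values of these genes: its bounds lay 32.6% of the FPKM to either side, whereas the median over the 3644 genes within 1.5-fold of that FPKM was 7.10%. In live cells the margin was 16.3%, beside a median of 20.0% at that level. Transcript numbers given here are those of GENCODE release 44, whereas the bounds rest on the earlier GENCODE version that the authors used, in which the numbers can differ. For SOX2 and L1TD1, with 1 annotated transcript each, the margins were close to what counting gives, 1.81% and 4.41% in live cells where 2 divided by the square root of the fragment number is 1.81% and 4.39%. Margins were also below the median of their level for DNMT3B, with 21 annotated transcripts (3.09% in live and 4.10% in processed cells), and in processed cells for DPPA4, with 8 (3.68%). They were above that median for POU5F1, with 7 transcripts (9.42% in live and 8.35% in processed cells). In live cells DPPA4 (5.07%) and TDGF1, with 5 (12.3%), also lay above it, as did ZFP42, with 3, in processed cells (19.3%). NANOG has 4 transcripts in GENCODE release 44, from 558 to 5182 nt, and how fragments were shared among transcripts in either library was not tested. The span the authors give NECAP1, an endocytosis gene, covers the NANOG locus, and NECAP1 had 12.1 FPKM (live) and 10.01 FPKM (processed).

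**Figure D3:**
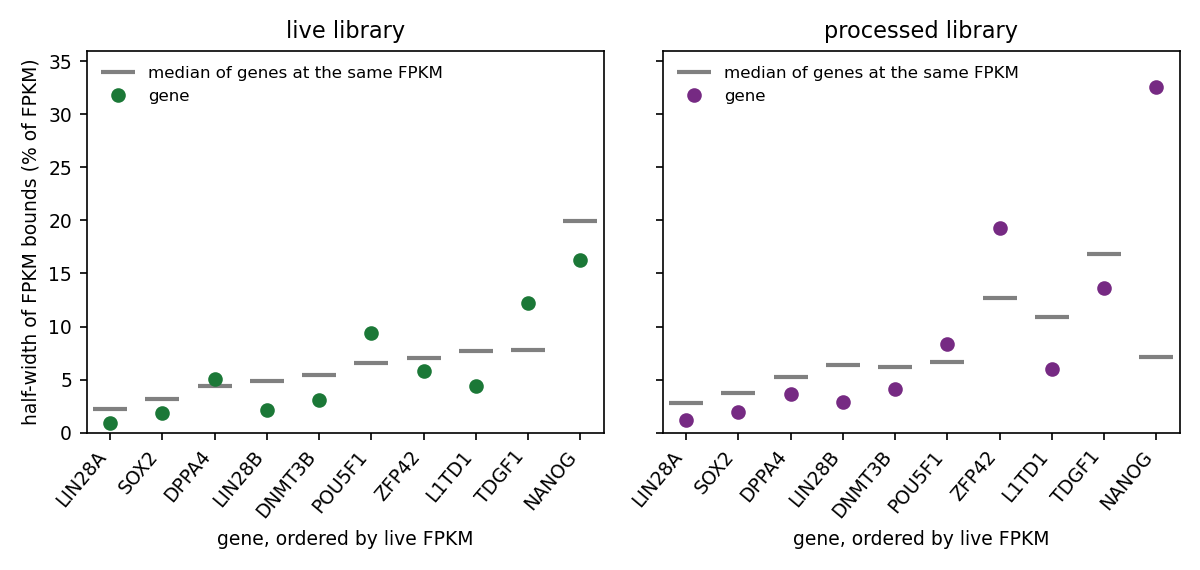
Distance from the FPKM to its upper bound, in percent of the FPKM, for each gene (points) and the median of all genes within 1.5-fold of the same FPKM (grey dashes), in the live library (left) and the processed library (right). NANOG in processed cells stands at 32.6% against a median of 7.10%, and ZFP42 at 19.3% against 12.7%.

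The NANOG promoter holds a known paired site for POU5F1 and SOX2 and is shown because NANOG differed most. Its RefSeq promoter window on GRCh38.p14 (250 bases before to 50 after the start, chr12:7789152-7789451, plus strand) reads, with the composite POU5F1 and SOX2 element in capitals:
NANOG promoter: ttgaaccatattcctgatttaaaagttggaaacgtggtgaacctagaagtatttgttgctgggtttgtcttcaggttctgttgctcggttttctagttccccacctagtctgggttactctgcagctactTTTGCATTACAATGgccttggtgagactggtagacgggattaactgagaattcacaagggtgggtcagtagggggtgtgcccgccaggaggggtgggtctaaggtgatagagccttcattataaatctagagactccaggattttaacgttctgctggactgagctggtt
Read on the other strand, the element is the SOX core CATTGT, 1 base of any kind and then ATGCAAA, most of an octamer. Searched on both strands, this composite was found in 3 of 35116 promoter windows (0.00854%), and NANOG was the one among the 8 windows of the 7 listed genes with a window. POU5F1, LIN28A and TDGF1 had no window to search. The site in NANOG was known beforehand, so its match there is not a test. The full octamer ATGCAAAT was in 1.77% of all windows and in 0 of those 8. The SOX core, which overlaps the composite, was in 10.8% of all windows and in 2 of the 8, those of NANOG and of LIN28B. These matches describe letters, and binding was not measured.

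LIN28A was the most abundant of the 10 genes and LIN28B the fourth in live cells. LIN28A (chromosome 1, 26737269 to 26756213), a cytoplasmic RNA-binding protein that marks let-7 precursors for decay, had 119 FPKM in live cells (118 to 120) and 88.7 FPKM in processed cells (87.7 to 89.8), a log2 ratio of -0.42. Its rank by FPKM went from 551 to 735 of all genes. LIN28B (chromosome 6, 105404923 to 105531207), its paralog, had 16.6 FPKM in live cells (16.2 to 16.9) and 9.58 FPKM in processed cells (9.30 to 9.86), a log2 ratio of -0.73. Both were lower in processed cells with bounds far apart. At a similar mean FPKM, 11.7% of 622 genes had a ratio as large in size as that of LIN28A, and 11.1% of 3899 genes as that of LIN28B.

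Of 22 other genes of the LIN28 and let-7 pathway, all reached an FPKM of 1, 13 had lower and 9 higher values in processed cells, and the median log2 ratio was -0.13. TRIM71, a stem cell RNA-binding protein and let-7 target, was the one past 2-fold, at 11.5 FPKM in live cells (11.1 to 11.9) and 4.26 FPKM in processed cells (4.01 to 4.51). The highest of the list were chromatin proteins and a cyclin that let-7 represses. Live and processed values were 551 and 535 FPKM for HMGA1, 127 and 105 FPKM for HMGA2 and 92.3 and 81.9 FPKM for CCND1. All 3 were within 2-fold, and LIN28A lay near HMGA2 in both libraries.

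TDGF1 (chromosome 3, 46616045 to 46668033), which lets Nodal signal through activin receptors, had 5.54 FPKM in live cells (4.86 to 6.22) and 1.46 FPKM in processed cells (1.26 to 1.66). Its log2 ratio of -1.41 was the lowest of the 10, and the live FPKM was 3.79 times the processed one. At a similar mean FPKM, 8.86% of 2845 genes had a ratio as large in size. LRRC2, which overlaps its locus, was below 0.15 FPKM in both libraries. Of 19 other genes of the Nodal and Cripto pathway, 17 reached an FPKM of 1 in a library (10 lower, 7 higher, median log2 ratio -0.05). With the pseudocount of 1, 0 were past 2-fold. In FPKM alone, 3 low genes were past it with bounds apart, named after their values were seen. LEFTY2 was lower in processed cells (1.29 and 0.222 FPKM), and NODAL (0.804 and 2.02 FPKM) and GDF3 (0.374 and 1.39 FPKM) were higher. HSPA5, a chaperone that binds Cripto at the cell surface, was the highest at 112 and 93.7 FPKM, followed by SMAD4 with 53.9 and 43.6 FPKM and the proteoglycan gene GPC1 with 30.3 and 29.6 FPKM.

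DNMT3B (chromosome 20, 31350191 to 31397162), which sets new DNA methylation and is high in undifferentiated cells, had 12.3 FPKM in live cells (11.9 to 12.7) and 10.6 FPKM in processed cells (10.2 to 11.0), a log2 ratio of -0.20. At a similar mean FPKM, 65.7% of genes had a ratio as large in size. In both libraries it was below its relative DNMT3A (40.7 and 30.2 FPKM) and the maintenance enzyme DNMT1 (47.7 and 48.6 FPKM). Of 16 other DNA methylation genes, 15 reached an FPKM of 1, 11 were lower and 4 higher, and the median log2 ratio was -0.08. The highest was MBD3 (50.3 and 52.4 FPKM), a subunit of a repressor complex, and TET3, which oxidizes methylcytosine, was the one past 2-fold (6.64 and 2.47 FPKM).

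DPPA4 (chromosome 3, 109044988 to 109056419), a nuclear DNA-binding protein of pluripotent and germ cells, had 23.5 FPKM in live cells (22.3 to 24.7) and 18.1 FPKM in processed cells (17.5 to 18.8), a log2 ratio of -0.36. Its partner DPPA2, chosen after its values were seen, had 0.223 and 0.555 FPKM. DPPA4 was thus far above its partner in both libraries.

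ZFP42 (REX1, chromosome 4, 188916925 to 188926204), a zinc finger protein, had 6.98 FPKM in live cells (6.57 to 7.38) and 2.57 FPKM in processed cells (2.07 to 3.07). The log2 ratio was -1.16, and 9.67% of 3206 genes at a similar mean FPKM had a ratio as large in size. Its bounds widened from 5.80% of the FPKM in live cells to 19.3% in processed cells, where the median at that level was 12.7%. L1TD1 (chromosome 1, 62660503 to 62678000), an RNA-binding protein derived from a LINE-1 element, had 5.68 FPKM in live cells (5.43 to 5.93) and 3.38 FPKM in processed cells (3.18 to 3.58), a log2 ratio of -0.61. Here 32.0% of 3125 genes at a similar mean FPKM had a ratio as large in size. The short entries inside L1TD1 (Y_RNA and RP5-1155K23.4), LIN28B (U6) and TDGF1 (AC104304.1) were listed at 0 in both libraries.

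Of these genes, TDGF1, NANOG and POU5F1 have near-identical copies elsewhere in the genome that reached an FPKM of 0.1 in a library. LIN28A has listed copies too, LIN28AP1 at 0.0859 FPKM in live and 0 in processed cells and LIN28AP2 at 0 in both. Their likeness to LIN28A was not examined. Stretches of 120 coding bases from the longest coding exon are shown with their match in a copy (GRCh37), since the likeness bears on how 80 nt reads could be assigned, and capitals mark the bases that differ. TDGF1 (chr3:46620722-46620841, plus strand) and TDGF1P3 (chrX:109764446-109764565, plus strand) differ at 2 of the bases, NANOG (chr12:7947275-7947394, plus strand) and NANOGP8 (chr15:35376691-35376810, minus strand) at 1, and POU5F1 (chr6:31138278-31138397, minus strand) and POU5F1P3 (chr12:8287328-8287447, minus strand) at 2.
TDGF1: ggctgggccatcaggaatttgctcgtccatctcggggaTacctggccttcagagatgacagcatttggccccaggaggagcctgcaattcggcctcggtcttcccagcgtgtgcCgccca
TDGF1P3: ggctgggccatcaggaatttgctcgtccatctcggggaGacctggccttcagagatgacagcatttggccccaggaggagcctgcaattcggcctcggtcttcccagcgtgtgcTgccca
NANOG: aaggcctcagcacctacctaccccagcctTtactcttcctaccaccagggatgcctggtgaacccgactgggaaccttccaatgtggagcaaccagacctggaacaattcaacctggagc
NANOGP8: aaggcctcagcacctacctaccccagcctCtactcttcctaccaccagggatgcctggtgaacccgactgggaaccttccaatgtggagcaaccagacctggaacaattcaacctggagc
POU5F1: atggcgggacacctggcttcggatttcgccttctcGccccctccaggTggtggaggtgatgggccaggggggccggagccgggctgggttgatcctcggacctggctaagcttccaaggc
POU5F1P3: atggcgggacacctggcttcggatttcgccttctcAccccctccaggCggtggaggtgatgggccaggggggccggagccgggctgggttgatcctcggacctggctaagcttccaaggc

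Of 17 copies listed by symbol, 6 reached an FPKM of 0.1 in a library, and 9 were listed at 0 in both. TDGF1P3 (chromosome X, 109764358 to 109764924) had 3.16 FPKM in live cells (2.59 to 3.72) and 0.512 FPKM in processed cells (0.277 to 0.747), so that gene and copy were both lower in processed cells. TDGF1P3 was 98.4% identical to a TDGF1 transcript over 1951 aligned bases, and 20.3% of its stretches of 80 bases occur without a mismatch in TDGF1 transcripts. These shares rest on the transcripts of GENCODE release 44, in which TDGF1P3, NANOGP8 and other copies can be longer than in the authors' annotation.

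The copies of POU5F1 differed from their parent. POU5F1B (chromosome 8, 128426535 to 128432311) stood at 1.88 FPKM (live) and 0.375 FPKM (processed), POU5F1P3 (chromosome 12, 8286372 to 8287447) had 2.08 and 0.745 FPKM, and POU5F1P4 (chromosome 1, 155402969 to 155404046) had 0.419 FPKM in live cells with an upper bound of 0.0237 FPKM in processed cells. The bounds of these 3 copies were apart, with the lower value in processed cells, whereas POU5F1 itself was nearly equal. The shares of their 80-base stretches found in POU5F1 transcripts were 5.29% for POU5F1B (248 of 4686), 24.5% for POU5F1P3 (245 of 999) and 15.5% for POU5F1P4 (156 of 1006). The lower share of POU5F1B is over a transcript of 4765 nt, of which 1371 bases aligned to POU5F1 at 98.0% identity.

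The copies of NANOG did not follow NANOG in size. NANOGP8 (chromosome 15, 35376394 to 35377311), 99.5% identical to NANOG over 1883 aligned bases and with 53.5% of its 80-base stretches shared, had 0.421 FPKM in live cells (0.267 to 0.575) and 0.577 FPKM in processed cells (0.386 to 0.769). NANOGP1 (chromosome 12, 8025534 to 8052674), with 36.6% of its stretches shared, had 0.638 FPKM (0.245 to 1.03) and 0.916 FPKM (0.638 to 1.19). For both, the bounds of the libraries overlapped. The levels of these 3 genes and their 6 copies are uncertain to the extent that the authors' counting could place a fragment in either, and this was not tested.

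**Figure D4:**
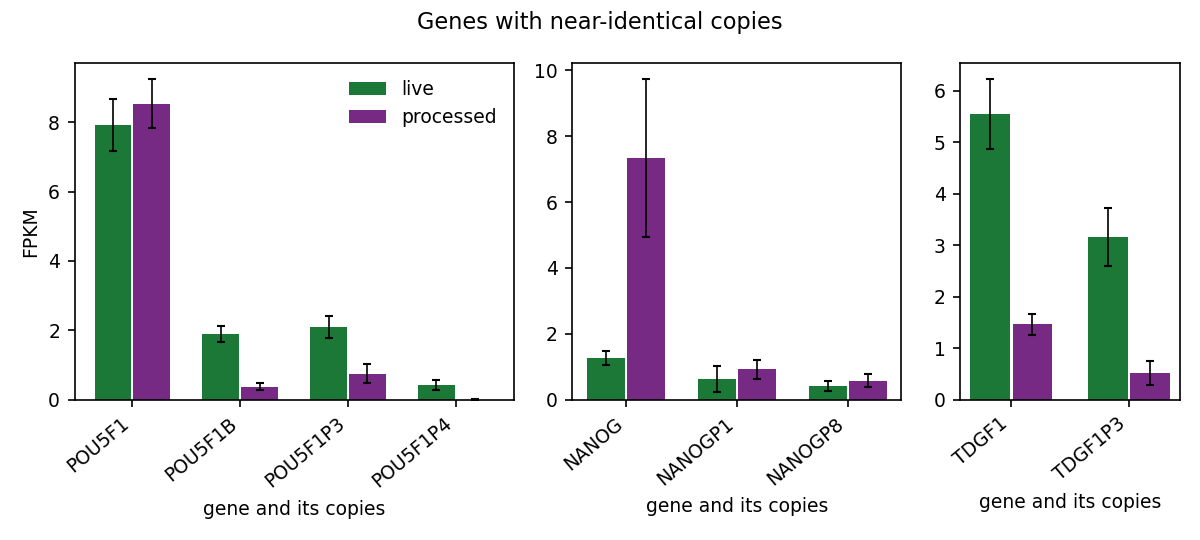
FPKM of POU5F1, NANOG and TDGF1 and of their copies with an FPKM of at least 0.1 in a library, for live (green) and processed (purple) cells, with the FPKM bounds as error bars and a separate FPKM axis in each panel. TDGF1 and TDGF1P3 are both lower in processed cells, POU5F1 is nearly equal while its 3 copies are lower, and NANOG is 5.78 times its live FPKM while NANOGP1 and NANOGP8 overlap in their bounds.

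Of 40 further genes known from pluripotent cells, 34 reached an FPKM of 1 in a library, 24 of them lower and 10 higher after processing, with a median log2 ratio of -0.10 beside -0.09 over all genes. Past 2-fold were TRIM71 and HESX1, a homeobox repressor at 1.64 FPKM in live cells (1.24 to 2.04) and listed at 0 in processed cells. The highest was CRABP1, a retinoic acid binding protein, at 267 and 230 FPKM. By mean FPKM it was followed by PHC1, a polycomb subunit, at 36.95 and 36.7 FPKM with status FAIL and bounds from 0 to 285 FPKM in live cells, and by SALL4, a zinc finger factor of stem cells, at 35.9 and 34.5 FPKM.

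Markers of other cells that express SOX2 differed in level. All 8 neural progenitor markers reached an FPKM of 1 in a library, led by NES, an intermediate filament gene, at 47.5 and 41.2 FPKM, PAX6 at 11.7 and 13.5 FPKM and ZIC1 at 10.5 and 9.39 FPKM. Of the 8, 6 were lower and 2 higher in processed cells and 0 were past 2-fold, with summed FPKM of 99.8 and 84.6. Among 6 foregut and stomach markers, FOXA2 had 60.8 and 55.1 FPKM, GATA4 53.0 and 59.2 FPKM and TP63 2.97 and 2.49 FPKM. The other 3 had FPKM values below those of TP63 in each library, CLDN18 at 1.70 and 0.958 FPKM, BARX1 at 0.719 and 1.46 FPKM and TFF2 at 0.316 FPKM in live cells and listed at 0 in processed cells. The summed FPKM of 119 in both libraries was thus mostly that of FOXA2 and GATA4, which pancreatic cells can make too, as they do PAX6. In such mixed cultures, fewer cells of a type and less RNA per cell cannot be told apart, and which cells carried SOX2 or LIN28A was not measured.

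Transcript length moved with the ratio across the library pair. Where the mean FPKM reached 3, the median log2 ratio was 0.05 for 1120 genes with a longest transcript under 1000 nt, -0.08 for 4137 genes from 2000 to 4000 nt, -0.14 for 2964 genes from 4000 to 6000 nt and -0.19 for 2492 genes of 6000 nt or more. The longest transcripts of the listed genes run from 1956 nt for TDGF1 to 5446 nt for LIN28B. The part of length in these ratios was not tested.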

How the data were processed

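Poly-A RNA of live and processed H1-derived Stage 6 cells was sequenced as paired reads of 80 nt. Per the labels and the paper's methods, the authors aligned reads to GRCh37/hg19 with STAR 2.2.0c and GENCODE annotation and deposited FPKM values with bounds and a status, from version 2.0.2 of Cufflinks (labels) or Cuffdiff (methods). The sources do not state the confidence level behind the bounds or the fragments used in scaling, and fragment counts were not analysed here. All 10 listed genes had status OK in both libraries.

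Libraries were joined by gene identifier in Python 3.11.15 with numpy 2.4.6 and pandas 2.3.3. Log2 ratios used a pseudocount of 1. Background counts covered expressed genes (1 FPKM or more in a library), and genes of similar level were those within 1.5-fold in FPKM. The value of 1 fragment was the fullest step, in bins of 5.0e-04, of FPKM times transcript length less 170 nt. Transcript lengths and sequences came from GENCODE release 44 on GRCh37 (lengths for 96.5% of background genes) and were aligned with Biopython 1.88. The ratio and the 2-fold call were tried on simulated data, for genes with live FPKM above that of each listed gene past 2-fold. The bounds were not simulated. Every listed gene is named. Of 9 further lists, the 3 highest genes and those past 2-fold are named, with copies at an FPKM of at least 0.1, overlapping genes and exceptions stated in place. Members and lists were chosen with earlier results of these data known. Alternatives changed the pseudocount, scaling, FPKM floor and status filter.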

Additional observations from a re-analysis of the deposited data

How the results depend on the processing

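Across pseudocounts of 0.1 and 0.01 and both rescalings of processed FPKM, none of the 10 log2 ratios changed sign. Only the rescalings could have changed it, since a pseudocount leaves the sign as it is. Of the 40 ratios under these settings, 24 moved by less than the combined FPKM bounds and 16 by more. With a pseudocount of 0.01 the ratios of NANOG and TDGF1 were 2.52 and -1.92. In each of the 7 alternatives, TDGF1 and ZFP42 lower and NANOG higher gave 3 genes past 2-fold. The lower or absent FPKM floor and the status filter leave these ratios as they are, and a smaller pseudocount can only enlarge them. Only the rescalings could therefore have removed one of the 3. The share of all genes past 2-fold ranged from 7.22% without an FPKM floor to 20.8% with a pseudocount of 0.01. Dividing processed FPKM by 0.932, the median ratio over genes expressed in both libraries (a log2 shift of -0.10), moved the median log2 ratio of the 10 genes to -0.29 and that of all genes to -0.0013, and the bounds of SOX2 then overlapped, which left 8 genes with bounds apart. With a floor of 10 FPKM in both libraries, 4 genes remained in place of 10. No paired analysis was possible because each condition has 1 library. Replicate error is unknown.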

Other observations

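Germ cells share DPPA4, NANOG, POU5F1 and LIN28A with pluripotent cells. Of 6 germ cell markers, 4 reached an FPKM of 1 in a library and 0 were past 2-fold. TFAP2C, a factor of early germ cells and of trophoblast, was the highest at 8.57 FPKM (live) and 7.96 FPKM (processed), followed by PRDM1 at 2.30 and 4.49 FPKM and NANOS3 at 1.74 and 1.38 FPKM. DDX4, the defining helicase of later germ cells, was listed at 0 in live and in processed cells.

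Relatives of POU5F1 and SOX2 were better represented on the SOX side. SOX4 had 172 and 156 FPKM in live and processed cells, SOX9 82.4 and 85.3 FPKM and SOX11 49.8 and 46.2 FPKM, so that SOX2 was near SOX11. Of the 18 genes of this list, which also holds YY1, ZFP41 and DPPA2, 14 reached an FPKM of 1, with 11 lower and 3 higher in processed cells, 0 past 2-fold and a median log2 ratio of -0.30. The POU genes of neural cells were low, with POU3F2 at 5.93 and 4.38 FPKM and POU3F1 at 4.22 and 1.97 FPKM, both named after their values were seen.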
